A study of Drosophila melanogaster with 3 samples.

Results

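Mitochondrial ribosomal protein genes are read here for chromatin peaks of the CG15514 protein at their promoters. They were taken as every protein-coding gene of Drosophila melanogaster whose FlyBase symbol starts with mRpL, for the large subunit of the mitochondrial ribosome, or mRpS, for the small subunit. The rule gave 73 genes of 13945 protein-coding genes, 47 of the large and 26 of the small subunit. A promoter was any position within 500 bp of an annotated transcription start site (TSS) of the gene. A gene had a promoter peak where a peak summit, the single highest base of a peak, fell in that window. Of the 73 genes, 54 had a promoter peak and 19 did not.

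Mitochondria keep their own ribosomes, which translate the few subunits of the respiratory chain that mitochondrial DNA encodes. Every protein of these ribosomes is encoded in the nucleus, made in the cytosol and imported, while the ribosomal RNAs come from mitochondrial DNA. The protein genes are scattered over the chromosomes and are expressed in nearly all cells, so in flies they are usually counted among the housekeeping genes.

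The data came from chromatin immunoprecipitation and sequencing (ChIP-seq) with an antibody against GFP. The embryos were of mixed sex, 0 to 24 hours old and of a single transgenic line, in which an insertion gives CG15514 a GFP tag at its C-terminal end. The 3 samples formed 1 group of biological replicates, with no second condition, and no list from a mock sample was used here. Whole embryos mix all tissues and stages of that day, so a peak cannot be given to a cell type.

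The authors deposited a list of 30000 entries for each replicate, a list of 30000 entries from the pooled replicates, and a list of 8708 peaks thresholded on reproducible rank, all on genome build dm6. Each entry has a signal value, the peak's height over the control as the authors' peak caller set it, which has no scale between lists. Ranks by signal, with 1 for the highest, and signals are therefore read within a list. Signals in the thresholded list ran from 118.9 to 70620. Read counts are not part of these files, and the depth of the samples is unknown.

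Peaks stood at the promoters of 74.0% of the mitochondrial ribosomal protein genes (54 of 73, 95% Clopper-Pearson interval 62.4% to 83.5%). Among all protein-coding genes, 5985 of 13945 had one, which is 42.9%. These intervals cover counting error over genes alone, and genes that share a peak are not independent. The large subunit had a peak at 36 of 47 genes (76.6%, interval 62.0% to 87.7%) and the small subunit at 18 of 26 (69.2%, interval 48.2% to 85.7%), and these intervals overlap over most of their length. Genes numbered within the bacterial set of ribosomal proteins, up to 36 in the large and 21 in the small subunit, had a peak in 34 of 42 cases (81.0%, interval 65.9% to 91.4%). The genes with higher numbers had one in 20 of 31 (64.5%, interval 45.4% to 80.8%), again with overlapping intervals.

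The height of these peaks was close to that of promoter peaks in general. Their median signal was 305.6, at a median rank of 3086.5 of 8708. The corresponding medians over all protein-coding genes with a peak were 314.6 and 2955. In the replicate lists, the median rank of the 54 promoter entries was 2956, 3300.5 and 3306.5 in replicates 1, 2 and 3 (mean 3188, SD 201, n = 3). Of the 73 genes, 10 (13.7%) had a peak at ranks 1 to 1000, against 8.07% of all protein-coding genes. Among protein-coding genes that diverge from another gene, as most of the 73 do, the share was 14.1%. Counted over genes with a peak alone, such peaks were at 10 of 54 and at 1125 of 5985. A further 25 of the 73 genes had their peak between ranks 1000 and 4000, and 19 beyond 4000.

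The highest peak belonged to mRpS26 (FBgn0036774, 3L from 18106579 to 18107499, plus strand), a small-subunit gene. Its summit at 18106529 was intergenic, 50 bp upstream of the TSS, and had a signal of 16518 and rank 116. The rank was 118 in each of the 3 replicate lists, with signals of 4416, 3629 and 8076. The gene diverges from CG13698, whose TSS lies 430 bp away and within 500 bp of the summit. Promoter peaks of the strongest 1000 in this series often hold the sequence GAACCAG or GAACTAG, here called the GAAC motif, which was chosen from earlier results of these data. The stretch beside the mRpS26 summit held it 2 times, and 2 other ribosomal protein genes had it once within 100 bp of the summit. The sites are shown as 30 bases of the plus strand of dm6, with the motif, or its reverse complement in mRpL55, in capitals, to compare the strongest peak with weaker ones. The second site in mRpS26 spans the TSS.
mRpS26 (chr3L:18106554-18106583, across the TSS): GAACCAGcaatcgaactgcgcgGAACCAGt
mRpL24 (chr2L:4945516-4945545, intergenic): tagaaatttaaGAACTAGcaattatttccc
mRpL55 (chr3R:19094949-19094978, intergenic): ctgtggtagccCTGGTTCagtttccacatt
The first site in mRpS26 lay 28 bp from the summit, that in mRpL24 19 bp and that in mRpL55 48 bp. The peaks of mRpL24 and mRpL55 ranked 693 and 4536. Over the 54 peaks, 3 held the motif (5.56%, interval 1.16% to 15.4%), against 7.05% of 4427 promoter peaks of all protein-coding genes. At ranks 1 to 1000 it was in 2 of the 10 peaks of these genes and in 25.5% of 774 promoter peaks in general.

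The second highest peak stood between mRpS21 (FBgn0044511, 3R from 13381276 to 13381809, minus strand) and Droj2, a chaperone gene of the DnaJ family, whose TSSs are 297 bp apart. Its intergenic summit at 13381913 was 104 bp upstream of the mRpS21 TSS, with a signal of 6445 and rank 184. In replicates 1, 2 and 3 its ranks were 175, 189 and 191, with signals of 1964, 1442 and 3039. These were the only peaks of the family among the first 200 ranks, and both were at small-subunit genes. That is 2 of 73 genes, against 276 of 13945 protein-coding genes and 185 of 4630 diverging ones, so the count is not particular to the family. After these 2 peaks of the family the signal dropped to 1848.

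That peak, next in rank, was at mRpL41 (FBgn0034001, 2R from 15217024 to 15217617, minus strand), which had rank 331 and replicate ranks of 342, 320 and 323, with signals of 419, 440.0 and 1004. Its summit lay 128 bp upstream of the TSS, within 500 bp of the non-coding gene lncRNA:CR44463, and the diverging protein-coding neighbour CG8079 starts 762 bp from mRpL41. mRpS23 (FBgn0260407, 2L from 13834250 to 13835072, minus strand) had a signal of 1818 at rank 336, with replicate ranks of 408, 331 and 308 and signals of 335, 428 and 1057. Its summit was 373 bp upstream of its own TSS, on the far side of the intergenic stretch of 492 bp that separates it from CenG1A, a regulator of Arf GTPases. The CenG1A TSS was nearer to it, at 119 bp.

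mRpS10 (FBgn0038307, 3R from 15229665 to 15230516, plus strand) is the mitochondrial counterpart of a bacterial small-subunit protein. It had a signal of 1761 at rank 343, and replicate ranks of 362, 356 and 333 with signals of 394, 394 and 968. The summit stood 128 bp upstream, about midway to Art3, an arginine methyltransferase gene that starts 257 bp away. A second summit at rank 7888, with a signal of 131.6, lay 202 bp from the first, 37 bp downstream of the other of the 2 annotated TSSs of the gene. mRpL23 (FBgn0035335, 3L from 2372844 to 2373704, minus strand) had a signal of 1348 at rank 425 and replicate ranks of 480, 418 and 404. Its signals there were 275, 316 and 758. The summit was in its own 5' UTR, 79 bp downstream of the nearest of its 3 annotated TSSs. Another of these lies 24 bp from the TSS of CG9004, which is on the other strand, and 105 bp from the summit. In each of these 6 genes the 3 replicate lists placed the peak at similar ranks.

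The next 9 genes by signal ranged from 904 to 426. mRpS2 had a signal of 904 at rank 638 (replicate ranks 609, 706 and 637) and diverges from Mon1, which acts with Rab7 in endosome maturation. mRpL51 had 879 at rank 664 (572, 673 and 699), with its summit in the 5' UTR of Uba4, a gene for tRNA thiolation that starts 31 bp away. mRpL24 had 843 at rank 693 (775, 709 and 665) and shares its promoter with betaggt-I, a subunit of a protein prenyltransferase. These were followed by mRpL47, the last of the first 1000 ranks, where TSSs of both CG8176 and the histone demethylase gene Kdm3 were within 500 bp of the summit. Its signal was 684 at rank 914, and its replicate ranks were 872, 834 and 1001. mRpL1, opposite CG9626, had 596 at rank 1117 but replicate ranks of 1035, 1891 and 1059, so replicate 2 placed it lower than the other 2. mRpL48, opposite CG17660, had 509 at rank 1435 (1372, 1709 and 1515), with its summit 1 bp downstream of the TSS. mRpS16, opposite the zinc finger gene cg (combgap), had 451 at rank 1715 (2153, 1513 and 1690). mRpS11, opposite Ns1 (nucleostemin 1), had 433 at rank 1843 (1885, 1785 and 1978). mRpL34, opposite Dg (dystroglycan), had 426 at rank 1889 (1316, 2446 and 1952). The replicate ranks of mRpL1, mRpS16 and mRpL34 were thus further apart than those of mRpS11 and mRpL48.

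**Figure D1:**
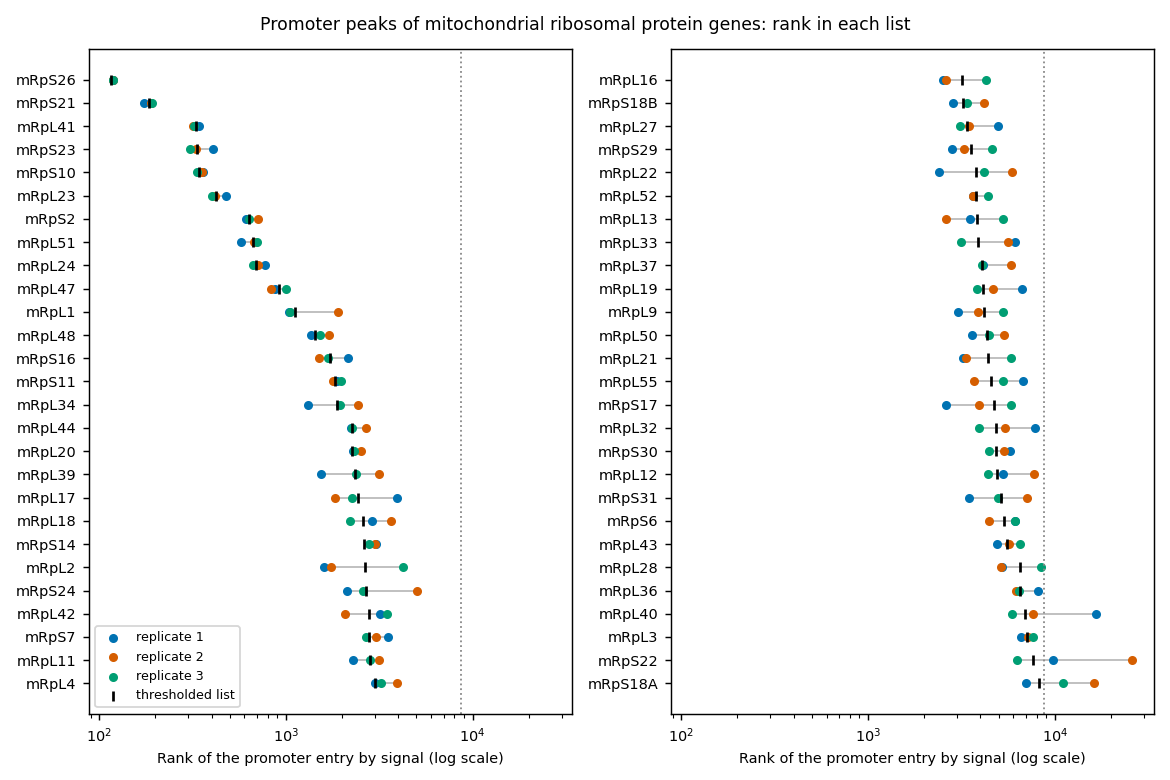
Rank by signal (log scale, in ranks) of the promoter peak of each of the 54 mitochondrial ribosomal protein genes with one, in the thresholded list (black bars) and in the lists of replicates 1, 2 and 3 (coloured points), with a grey line from the lowest to the highest replicate rank. The dotted line is rank 8708. Points of the strongest genes nearly coincide, as for mRpS26 at rank 118 in each replicate, while those of the weakest spread widely, as for mRpS22, from 6259 to 26070.

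Of the weakest 5 peaks, 3 were not supported by every replicate. mRpS18A, opposite CG31460, was the lowest, with a signal of 126.2 at rank 8231 and replicate ranks of 7000, 16309 and 11072. mRpS22, opposite CG5003, had 136.6 at rank 7641 and replicate ranks of 9803, 26070 and 6259. In both, the peak was supported in 1 replicate, that is, had a summit no more than 100 bp away among its first 8708 ranks. mRpL3, the counterpart of a protein near the peptidyl transferase centre of bacterial ribosomes, had 147.0 at rank 7090, and its replicate ranks of 6636, 7173 and 7610 lay close together. It diverges from Graf. mRpL40 had 151.2 at rank 6909, with replicate ranks of 16542, 7622 and 5900, so replicate 1 did not support it. mRpL36, 601 bp from CG7550 in the same direction, had 160.6 at rank 6523 and replicate ranks of 8170, 6241 and 6400.

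Of the 54 peaks, 51 were supported in this sense by all 3 replicates, 1 by 2 replicates and 2 by 1 replicate. Spearman's rank correlation over these 54 genes was 0.847 for replicates 1 and 2, 0.829 for 1 and 3 and 0.822 for 2 and 3. The 54 peaks come from a list thresholded on reproducible rank over these same replicates, which itself favours such support and correlation. At all 54 genes, rank and signal in that list equalled those in the pooled list. A peak in it thus need not have ranked alike in every replicate, as at mRpS22. The share supported over all promoter peaks is not given here. All these lists were also set against the same control alignment. By arm, a peak was present at 11 of 12 genes on 2L, 9 of 12 on 2R, 12 of 17 on 3L, 16 of 21 on 3R and 6 of 11 on X. These counts are small and no share over all genes of an arm is given, so the arms are not compared. All 54 summits were different positions. mRpL37, a large-subunit gene in the middle of the range, had a signal of 249.7 at rank 4085 and replicate ranks of 4107, 5807 and 4094.

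Most of these genes sit head to head with another gene. A promoter was called diverging where the nearest TSS of another protein-coding gene was within 1000 bp, on the other strand and pointing away. That held for 57 of the 73 genes (78.1%) and for 4630 of 13945 protein-coding genes (33.2%). Of the 57, 48 had a promoter peak (84.2%, interval 72.1% to 92.5%), while diverging promoters in general had one in 68.6% of cases. Another 13 genes (17.8%) stood alone, with no other gene's TSS within 1000 bp, a layout that 51.8% of protein-coding genes have. Among these 13, a peak was present at 4 (30.8%, interval 9.09% to 61.4%), near the 27.2% of stand-alone protein-coding genes in general. The 4 were mRpL9, mRpL12, mRpL19 and mRpL40. The remaining 3 genes, mRpL13, mRpL36 and mRpL53, have a neighbour in the same direction, and the first 2 of them had a peak. The median signal was 327.9 at the diverging promoters of these genes and 228.9 at the 4 stand-alone ones, against 341.8 and 275.7 for protein-coding genes of the same layouts.

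**Figure D2:**
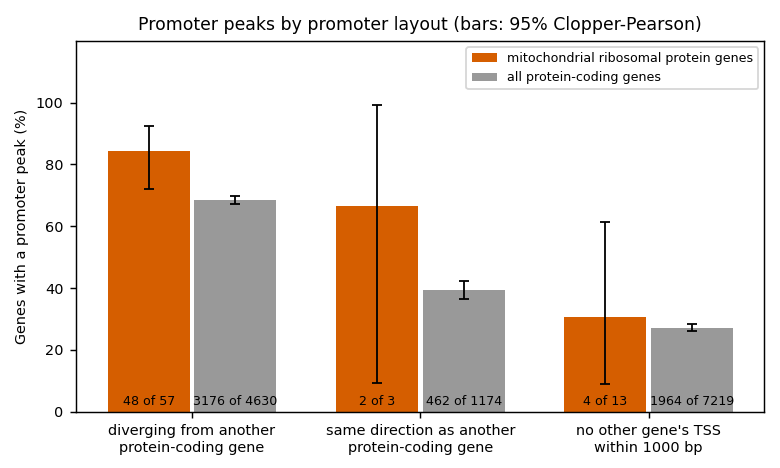
Percentage of genes with a promoter peak by promoter layout, for mitochondrial ribosomal protein genes (orange) and all protein-coding genes (grey), with 95% Clopper-Pearson intervals as error bars and the numbers of genes at the foot of each bar. The shares are 84.2% and 68.6% at diverging promoters and 30.8% and 27.2% where no other gene's TSS lies within 1000 bp.

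Because of this layout, few of the peaks could be given to the ribosomal protein gene alone. In 46 of the 54 cases the summit was within 500 bp of a TSS of another gene, which was protein-coding in 45. The exceptions were mRpL4, mRpL9, mRpL12, mRpL19, mRpL22, mRpL36, mRpL40 and mRpS29. The median distance from the summit to the own TSS was 104.5 bp, from 1 to 447 bp, against 83 bp for all protein-coding genes with a peak. In 25 genes the distance was at most 100 bp. The summit was upstream of the own TSS in 48 genes and downstream in 6. It was intergenic in 41, in the own 5' UTR in 6 and in the 5' UTR of another gene in 7, where a stretch that belongs to both genes of a pair was counted with the own gene. Of the 54 genes, 48 were diverging, against 3176 of the 5985 protein-coding genes with a peak. For shared, upstream and intergenic summits no share over all genes is given. Whether these counts are particular to the family was not tested.

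At the 48 diverging promoters with a peak, the summit lay between both TSSs in 36 (75.0%), on the transcribed side of the neighbour in 7 (14.6%) and on that of the ribosomal protein gene in 5 (10.4%). Over 3176 diverging protein-coding genes with a peak, these shares were 75.7%, 8.72% and 15.6%. The summit was nearer to the TSS of the neighbour in 26 pairs (54.2%) and to that of the ribosomal protein gene in 22 (45.8%). Over the 3176 genes these shares were in the other order, 43.1% nearer to the neighbour and 56.4% nearer to the own TSS. Whether the family differs in this was not tested. The median distance between the TSSs of a diverging pair was 285 bp, and 295 bp over all diverging protein-coding genes.

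**Figure D3:**
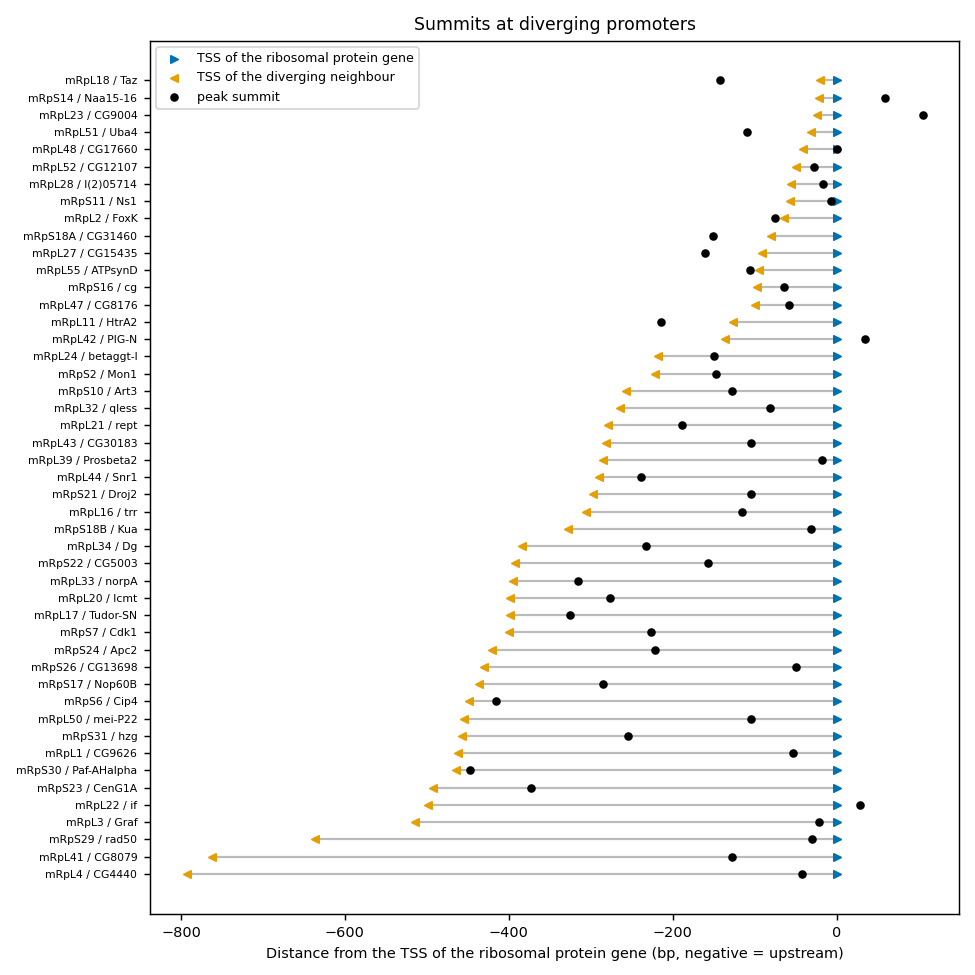
Summits of the promoter peak (black points) at the diverging promoters with a peak, with 1 of the 48 not drawn, as distance in bp from the TSS of the mitochondrial ribosomal protein gene (blue arrowheads at 0), with the TSS of the neighbour (yellow arrowheads), sorted by the distance between the TSSs. A point on the grey line is a summit between the TSSs, as in 36 of the 48 pairs. Where a gene has several TSSs, the one nearest to the neighbour is drawn.

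The diverging neighbours with a shared peak came from many pathways. Other mitochondrial functions were represented by mRpL11 with HtrA2, a mitochondrial protease, mRpL18 with Taz, the cardiolipin-remodelling tafazzin, mRpL32 with qless, an enzyme of coenzyme Q synthesis, and mRpL55 with ATPsynD, a subunit of ATP synthase. Chromatin and transcription were represented by mRpL16 with trr, a histone H3K4 methyltransferase, mRpL44 with Snr1, a subunit of the Brahma remodelling complex, mRpL21 with rept (reptin), and mRpL2 with the forkhead gene FoxK. RNA-related neighbours were Nop60B, an rRNA pseudouridine synthase, with mRpS17, and Tudor-SN with mRpL17. Cell cycle and genome genes were Cdk1 with mRpS7 and mei-P22, required for meiotic recombination, with mRpL50. Signalling and adhesion genes were norpA, the phospholipase C of phototransduction, with mRpL33, Apc2 with mRpS24, and Cip4 with mRpS6. These names describe what stands at the other side of the peak, and no count over pathways was made.

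Further pairs were mRpL39 with the proteasome subunit gene Prosbeta2, mRpL20 with Icmt, a prenylcysteine methyltransferase, mRpL42 with PIG-N of the GPI anchor pathway, mRpS14 with Naa15-16 of an N-terminal acetyltransferase, and mRpS30 with Paf-AHalpha. The genes mRpL27, mRpL43, mRpL52, mRpS18B and mRpS31 diverge from CG15435, CG30183, CG12107, Kua and hzg, and mRpL28 from the gene FBgn0010607. At mRpL4, mRpL22 and mRpS29, the diverging genes CG4440, if (the integrin inflated) and rad50 had no TSS within 500 bp of the summit. mRpL13 starts at the same base as CG10602, in the same direction, and the peak at rank 3826 cannot be told apart between them. A second promoter summit was found at mRpL17 (rank 5072, signal 206.5, 232 bp from the first) and mRpL18 (rank 8230, signal 126.2, 200 bp from the first), besides mRpS10.

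The best known element of housekeeping promoters in flies, the DNA replication-related element (DRE), was present at some weaker peaks. It reads TATCGATA and is bound by the factor DREF. Within 100 bp of the summit it was found in 9 of 54 peaks (16.7%, interval 7.92% to 29.3%), against 13.3% of 4427 promoter peaks of protein-coding genes. These were mRpL3, mRpL4, mRpL12, mRpL16, mRpL19, mRpL32, mRpL39, mRpS18B and mRpS29. None of the 10 peaks at ranks 1 to 1000 held it, against 11.9% of promoter peaks in general at those ranks, and with 10 peaks a share of up to 30.8% is within the interval. Of the sites, 5 are shown as 30 bases of the plus strand of dm6, with the DRE in capitals, to show the element at genes of both subunits and both layouts.
mRpL12 (chr3L:8956803-8956832, 5' UTR of mRpL12, 16 bp from the summit): ccctggctgttTATCGATAaactgctcaca
mRpL19 (chr3R:8674073-8674102, intergenic, 16 bp from the summit): ttataaagggtTATCGATAactctgctgta
mRpL39 (chr3L:14999680-14999709, intergenic, 11 bp from the summit): tggaaacagtaTATCGATAtttttcaaaca
mRpL3 (chrX:15761234-15761263, across the TSS of mRpL3, 23 bp from the summit): aatatcgctgaTATCGATActgtggccgat
mRpS18B (chr2L:20097239-20097268, across the TSS of mRpS18B, 30 bp from the summit): cgatacatgacTATCGATAcattcaggggc
The signals of these 5 peaks were 212 for mRpL12, 248 for mRpL19, 369 for mRpL39, 147.0 for mRpL3 and 295 for mRpS18B. The highest of them, mRpL39, had rank 2345.

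The genes with a DRE in the peak were listed in every replicate, as were all 54 genes with a promoter peak. mRpL12, whose bacterial counterpart forms the stalk that contacts translation factors, had replicate ranks of 5266, 7762 and 4371. mRpL19 had 6646, 4662 and 3814, and mRpL39 had 1537, 3167 and 2378. For mRpS18B they were 2855, 4184 and 3383. mRpL16 (rank 3170) had 2527, 2615 and 4271, mRpL4 (rank 3003) had 3007, 3953 and 3230, and mRpL32 (rank 4831) had 7851, 5409 and 3953. mRpS29 (rank 3558) had 2822, 3271 and 4634. In each of these the summit was supported by all 3 replicates, as in 51 of all 54 peaks.

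For 4 other promoter motifs, the share in promoter peaks in general lay within the counting interval of the 54 peaks. CGATA, the core that the insulator protein BEAF-32 recognises and that the DRE contains, was in 29 of 54 peaks (53.7%, against 49.5%). GGTCACAC, the core of the Ohler 1 motif that M1BP binds, was in 4 (7.41%, against 10.8%), at mRpL22, mRpL48, mRpS6 and mRpS16. CANCNCTA, the core of the Ohler 7 motif, was in 10 (18.5%, against 17.8%). GAGAGAG, the repeat that the Trl factor recognises in developmental promoters, was in 0 of 54, which allows a share of up to 6.60% by the interval, against 3.70%. All motifs were sought on both strands as exact letters, and a match is not a site of binding.

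Around the most upstream TSS in place of the summit, a search added after the counts at summits were seen, the DRE was within 100 bp at 15 of the 73 genes (20.5%, interval 12% to 31.6%), against 7.84% of protein-coding genes and 13.8% of those with a peak. It was at 13 of the 54 genes with a peak and at 2 of the 19 without one, mRpL10 and mRpS25. CGATA was at 42 of the 73 (57.5%, interval 45.4% to 69%), against 39.4% of protein-coding genes. It was at 28 of the 54 genes with a peak (51.9%), against 50.4% of protein-coding genes with a peak. Among the 19 without one it was at 14 (73.7%, interval 48.8% to 90.9%), against 31.1% of protein-coding genes without a peak. The Ohler 1 core was at 8 (11.0%, against 6.76%), all with a peak, the Ohler 7 core at 13 (17.8%, against 12.2%), the GAAC motif at 4 (5.48%, against 3.67%) and GAGAGAG at 0 (against 3.69%). For these last 4, the share of protein-coding genes lay within the counting interval of the 73.

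The E-box CAGCTG, the core of the Ohler 5 motif, was in 16 of the 54 peaks (29.6%, interval 18% to 43.6%), against 17.3% of promoter peaks in general. In the search within 100 bp of the most upstream TSS, CAGCTG was present at 38 of the 73 genes (52.1%, interval 40% to 63.9%), against 1921 of 13945 protein-coding genes (13.8%). It was present at 25 of 47 large-subunit (53.2%) and 13 of 26 small-subunit genes (50%). It occurred with and without a peak: 25 of the 54 genes with a peak had it (46.3%, interval 32.6% to 60.4%) and 13 of the 19 without one (68.4%, interval 43.4% to 87.4%). These intervals overlap. Over all protein-coding genes the order was the other way, with 19.2% of those with a peak and 9.72% of those without one. It also occurred in both main layouts, with 28 of 57 diverging genes (49.1%, against 17.5% of diverging protein-coding genes) and 8 of 13 stand-alone genes (61.5%, against 11.4%). The stretches around 9 of the sites are shown on the strand of the gene, 30 bases each, with the E-box in capitals; the first 5 genes have a promoter peak and the last 4 do not.
mRpS21 (chr3R:13381790-13381819, minus strand): agtgatattcatCAGCTGtttagcagtaca
mRpL2 (chr3L:11120845-11120874, plus strand): aacgccgcgtaaCAGCTGttttcagccgca
mRpL28 (chr2L:4973979-4974008, plus strand): ttcacatacgaaCAGCTGttttttccaaac
mRpL47 (chr3R:9515873-9515902, minus strand): ttgttattgcttCAGCTGttttgttcggtc
mRpL40 (chr3R:11407929-11407958, plus strand): cagcaacaaaaaCAGCTGttcgtacattac
mRpS34 (chr3L:16348064-16348093, plus strand): agccagccggcaCAGCTGttcgaccttccc
mRpS25 (chrX:14582959-14582988, minus strand): tagccgaccgatCAGCTGttcgcattacac
mRpS33 (chr3R:16436566-16436595, minus strand): gcacttggaaatCAGCTGtcgcttgttttt
mRpL46 (chr3L:1777425-1777454, plus strand): tgtgccgcaaatCAGCTGttccggctctgg
The centre of each of these E-boxes lies in the annotated 5' UTR of its gene, which does not hold for the sites as a whole. Of the 39 sites, 16 were upstream of the TSS. Among genes without a peak, the site was intergenic at mRpL14, mRpL35, mRpL45, mRpL54, mRpS9, mRpS18C, mRpS28 and mRpS35. In all but mRpS33 the E-box is followed by TT. The sequences shown hold TT more often than the sites as a whole, where it was found in 23 of 39. No share over all protein-coding genes is given for it.

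Most of the E-boxes were close to the TSS. Of the 39 sites, 36 were within 50 bp of the TSS, and 23 were downstream of it, at 2 to 38 bp with a median of 16 bp. No share over all protein-coding genes is given for these counts of sites. Over all protein-coding genes, matches were also denser near the TSS. They were at 1.31% of genes from -10 to -1 bp, and at 0.523% and 0.229% in the outermost upstream and downstream bins of 10 bp. A site 1 to 50 bp downstream was present at 22 of the 73 genes (30.1%, interval 19.9% to 42.0%), against 4.48% of protein-coding genes. mRpS6 was the 1 gene with 2 sites. In the bound genes with such a site, the median distance from the site to the peak summit was 123 bp. In the 5 sequences shown from bound genes it was 109 bp for mRpS21, 88 bp for mRpL2, 79 bp for mRpL47, 59 bp for mRpL40 and 35 bp for mRpL28. At mRpL19 and mRpL48 the distances were 16 and 23 bp.

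**Figure D4:**
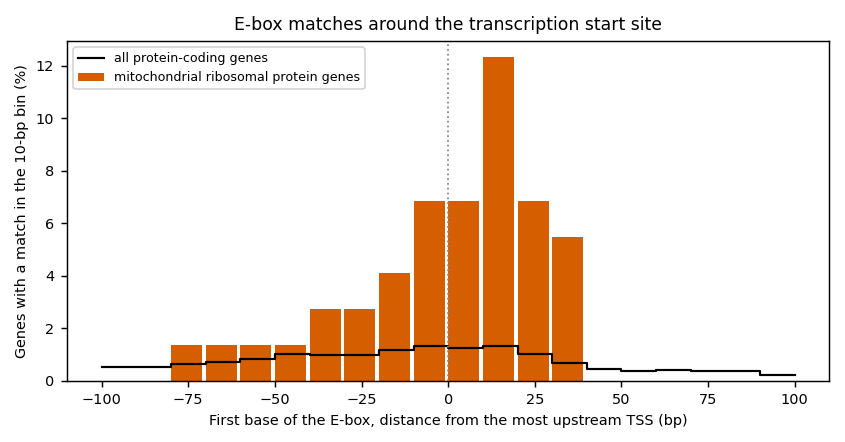
Percentage of genes with a CAGCTG match by distance of its first base from the most upstream TSS, in bins of 10 bp (negative is upstream), for mitochondrial ribosomal protein genes (orange bars) and all protein-coding genes (black line). The highest bar is the bin from 10 to 19 bp downstream, at 12.3% of the genes against 1.31% of protein-coding genes.

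Among the 19 genes without a thresholded promoter peak, 9 were diverging, 9 stood alone and 1 had a neighbour in the same direction. The stand-alone genes were mRpL10, mRpL14, mRpL45, mRpL49, mRpS5, mRpS9, mRpS33, mRpS34 and mRpS35. The diverging ones were mRpL15 with CtIP, a DNA end resection factor, mRpL30 with HLH4C, a bHLH gene, mRpL35 with Mitofilin, which shapes mitochondrial cristae, and mRpL38 with CG11674. The others were mRpL46 with CG2021, mRpL54 with CG15653, mRpS18C with CG15535, mRpS25 with nmdyn-D6 and mRpS28 with CG5323. mRpL53 starts at the same base as CG33155.

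Some of these genes were listed in the replicates. mRpL10 had a promoter entry at ranks 5941, 5225 and 4882 in replicates 1, 2 and 3, with signals of 41.9, 49.5 and 119, and mRpL38 at 7967, 7623 and 8234, with signals of 31.2, 35.5 and 72.2. Both were thus within the strongest 8708 entries of every replicate, yet neither had a promoter entry anywhere in the pooled list. The nearest thresholded summit was 3570 bp from mRpL10 and 7942 bp from mRpL38. Over all protein-coding genes, 5105 (36.6%) had a promoter entry among the strongest 8708 of all 3 replicates. Of these, 44 had no thresholded promoter peak and 30 had no promoter entry in the pooled list. Why the lists differ there was not tested. With these 2 genes, 53 of the 73 (72.6%) had such an entry in all 3 replicates.

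A further 3 genes had one in 2 replicates. mRpL53 was listed at rank 1389 in replicate 1 and 2659 in replicate 2, with signals of 123 and 81.8, and not in replicate 3 or the pooled list. mRpL14 was listed at 6702 and 3661 in replicates 1 and 2, and mRpL54 at 3402 and 4675 in replicates 2 and 3, and both were missing from the other replicate and from the pooled list. Another 6 genes had an entry within the strongest 8708 of a single replicate. In replicate 1 these were mRpL15 (rank 6853), mRpL35 (8044), mRpL45 (7146) and mRpS25 (7133). The others were mRpS9 in replicate 2 (rank 6013) and mRpS18C in replicate 3 (rank 7278). The remaining 8, mRpL30, mRpL46, mRpL49, mRpS5, mRpS28, mRpS33, mRpS34 and mRpS35, had none.

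The pooled list held a promoter entry below the threshold for 8 of the 19 genes. mRpS18C (pooled rank 9778) and mRpL30 (10174) came nearest to the last thresholded rank, 8708, followed by mRpL15 (10870) and mRpL35 (14010). mRpS28, mRpS33, mRpL49 and mRpS5 followed at 16396, 17144, 21319 and 28317. mRpS5 is far from any other peak, with the nearest thresholded summit 508784 bp away on 3L. For the other 18 that distance was between 1302 bp (mRpS35) and 7942 bp (mRpL38).

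**Figure D5:**
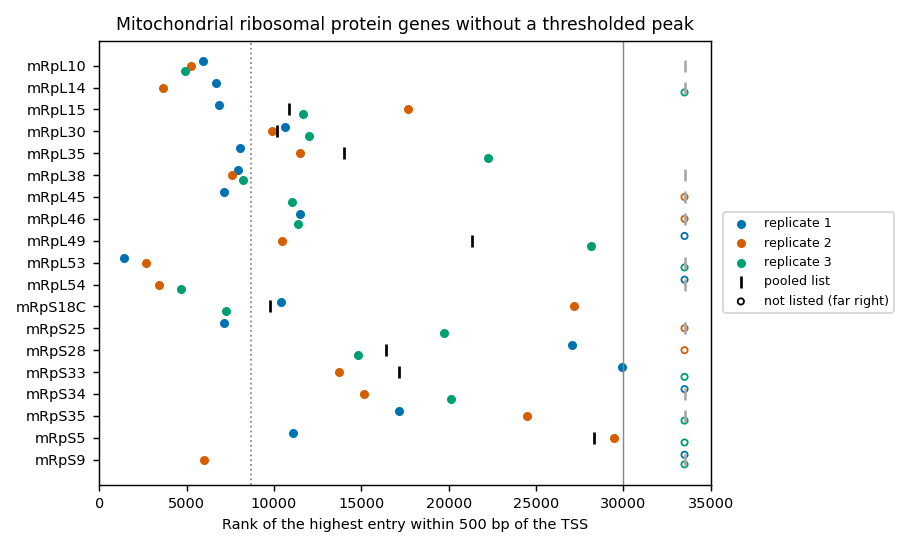
Rank by signal of the highest entry within 500 bp of a TSS for the 19 mitochondrial ribosomal protein genes without a thresholded promoter peak, in replicates 1, 2 and 3 (filled points) and in the pooled list (black bars). Open circles and grey bars at the far right stand for lists with no entry there, the dotted line is rank 8708 and the solid line is the last rank, 30000. mRpL10 and mRpL38 have all 3 points to the left of the dotted line and a grey bar.

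Other genes of the same organelle or of the cytoplasmic ribosome give a scale. The list of mitochondrial gene expression (aminoacyl-tRNA synthetases, translation factors, transcription and RNA processing factors of the organelle, with the membrane insertase OXA1L and the ADP/ATP carrier sesB) had a promoter peak at 33 of 45 genes (73.3%, interval 58.1% to 85.4%), with a median signal of 248.7. Nuclear genes of the respiratory chain had one at 61 of 95 (64.2%, interval 53.7% to 73.8%), with a median signal of 330.5. Genes of the cytoplasmic ribosome had one at 85 of 92 (92.4%, interval 84.9% to 96.9%), with a median signal of 593. Of the latter, 37 of 92 (40.2%) had a peak at ranks 1 to 1000, against 10 of the 73 mitochondrial ribosomal protein genes. Diverging promoters made up 51.1%, 48.4% and 58.7% of these lists, against 78.1% of the mitochondrial ribosomal protein genes. CAGCTG near the TSS was present at 22 of 45 genes of mitochondrial gene expression (48.9%, interval 33.7% to 64.2%), at 20 of 95 of the respiratory chain (21.1%, interval 13.4% to 30.6%) and at 8 of 92 of the cytoplasmic ribosome (8.70%, interval 3.83% to 16.4%). These lists were chosen with earlier results of these data known.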

How the data were processed

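ChIP-seq peak lists of 3 biological replicates were used, with replicate numbers from the labels. Each signal is the height that the authors' peak caller deposited, and significance is deposited as −log10 of q, which was not used for ranking. Per the file headers and deposited descriptions, the 3 replicate lists and the pooled list were made against 1 control alignment. Aligner, peak caller, versions and IDR threshold (IDR keeps peaks of reproducible rank): not given in the sources used here. The dm3 lists were not used here. Depth is unknown, and intervals (95%, Clopper-Pearson) cover counting error alone.

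Coordinates are dm6, written from 1. TSSs came from the Ensembl 115 annotation of FlyBase 6.54, and sequences from the RefSeq Release 6 genome. A promoter was 500 bp around any TSS, and layout used the nearest TSS within 1000 bp. Replicate support was a summit within 100 bp among as many strongest entries as the thresholded list holds. Motifs were exact matches within 100 bp. There was 1 group, so no test was made. Python 3.11.15, scipy 1.17.1 and matplotlib 3.10.9 were used, and the scripts were tested on simulated data.

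Every gene of the family is accounted for. Named with values are the 15 highest and 5 lowest promoter signals, every gene without a peak, with 2 summits, or with a DRE or GAAC motif in its peak, and the neighbours, of which 1 is not reported here. In the list of mitochondrial gene expression, 16 of 64 names matched no gene, and 3 of the other 48 were further names of a gene already matched. The genes, lists and motifs were chosen with earlier results of these data known. Alternatives were other promoter widths, the most upstream TSS alone, interval overlap, the stronger 50% of peaks, and stand-alone genes alone. Others were support by the other 2 replicates with 1 left out, all pooled entries and motif windows of 50 and 200 bp. An entry among the strongest of all 3 replicates was added after seeing the data.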

Additional observations from a re-analysis of the deposited data

How the results depend on the processing

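The number of genes with a promoter peak, 54 of 73, was 47 with promoters of 250 bp (64.4%, against 38.0% of protein-coding genes), 39 with the stronger 50% of peaks (53.4%, against 29.2%) and 62 with all pooled entries (84.9%, against 59.3%). It was 54 with 1000 bp, with the most upstream TSS alone and with interval overlap. Requiring an entry among the strongest of all 3 replicates, an alternative chosen after seeing the data, gave 53. Leaving out each replicate in turn kept only thresholded peaks that the other 2 replicates supported. The list and its ranks still came from all 3. Without replicates 1, 2 and 3 this kept 6453, 6414 and 5913 of the 8708 peaks. Genes with a peak were then 52 (71.2%, against 36.8% of protein-coding genes), 51 (69.9%, against 37.4%) and 51 (69.9%, against 35.8%). Their median ranks were 2835 to 2919 in place of 3086.5, which dropping weakly supported peaks can itself lower. In each case 44 peaks were shared with another gene in place of 46. Among the stronger 50% of peaks the median rank was 2575, which the limit itself lowers. The 13 genes with no other gene's TSS within 1000 bp had 4 peaks at a median rank of 4545.5, of which 0 were shared, as their choice fixes. Shared peaks were 31 with promoters of 250 bp, 34 with the stronger 50% of peaks, 49 with interval overlap and 50 with 1000 bp. Motif counts followed the window: within 50 and 200 bp of the summit in place of 100 bp, CAGCTG was in 4 and 28 peaks, the DRE in 6 and 12, CGATA in 17 and 37, the Ohler 1 core in 3 and 12, the Ohler 7 core in 2 and 14, the GAAC motif in 2 and 5, and GAGAGAG in 0 and 1. No share over promoter peaks in general is given at 50 and 200 bp. Whether the higher share of CAGCTG seen at 100 bp holds at those windows is therefore not known. No paired analysis was possible because there is 1 group. Depth is unknown, and an absent peak means not detected in these lists.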

Other observations

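Proteins of the mitochondrial ribosome whose genes carry other names are outside the symbol rule. 2 of them were looked up, chosen after the values of the others were seen. tko (technical knockout, mRpS12 on X), known for its bang-sensitive mutant, stands alone and had a promoter peak with a signal of 454 at rank 1700, and ranks of 2010, 1471 and 2001 in replicates 1, 2 and 3. bonsai (mRpS15), which diverges from the kinase gene Cdk9, had no thresholded promoter peak and was listed in replicate 2 alone, at rank 4091.

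Within mitochondrial gene expression, the highest promoter signals were those of PNPase, a polynucleotide phosphorylase of mitochondrial RNA (1958, rank 316), ArgRS-m, the arginyl-tRNA synthetase (1351, rank 423), mRF1, a translation release factor (1122, rank 509), and Slimp, a paralogue of seryl-tRNA synthetase (675, rank 929). No thresholded promoter peak was found at GatB, GluRS-m, MetRS-m, PheRS-m, SerRS-m, TFAM, ValRS-m, mEFG1, mEFTu1, mEFTu2, mIF3 and mRRF2. TFAM packages mitochondrial DNA, and its diverging promoter was thus without a peak while that of PolrMT, the mitochondrial RNA polymerase, had one with a signal of 198 at rank 5310.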
